A study of Mus musculus with 2 samples.

Results

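The 691 strongest CTCF peaks of newborn mouse stomach were the peaks of the optimal list with a signal of 500 or more, out of 74283 optimal peaks on the chromosomes (0.930%). They were chosen on the signal, a value without a unit that the authors' peak caller gave each peak, so their height is a description and was not tested. The signal of the 691 ran from 500 to 677 with a median of 525, against a median of 76.6 over all optimal peaks. The lowest peaks inside the limit lay near Ctnnbip1 (500.24), Emp1 (500.09) and Slc6a6 (500.06), and the first ones outside it near Armc12 (499.96), Tlr5 (499.94) and Insc (499.93), so the limit fell in no gap of the signal.

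The peaks come from ChIP-seq, in which an antibody to CTCF recovers the DNA fragments bound by the protein. The material was stomach tissue of B6NCrl mice on postnatal day 0, with 1 group of 2 samples, described as biological replicates 1 and 2. Both replicates carry the same donor and tissue sample in the labels, so the spread between them may be technical, and sex was not recorded. No treatment or mutation is given, and with 1 group no contrast between conditions could be made. Expression was not measured in these samples, so the tissue label could not be checked against marker genes.

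CTCF is a DNA-binding protein with an array of zinc fingers that reads a long, asymmetric motif. It holds cohesin in place on chromatin and thereby sets the anchors of loops and the borders of domains, and the strand of its motif sets the direction from which cohesin is stopped. Much of its binding is shared between tissues, and methylation of a CpG within the motif can weaken it.

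The sequences under the strongest peaks often held the CTCF motif more than once. Windows in which 2 matches stood side by side are printed for the 5 of the 6 peaks of highest signal that held them, because paired matches were more frequent in the strongest peaks than in all optimal peaks. Each is the plus strand of GRCm38 (the assembly also called mm10), with the 20 bases of each match in capitals, and each match can lie on either strand.
Fam129b: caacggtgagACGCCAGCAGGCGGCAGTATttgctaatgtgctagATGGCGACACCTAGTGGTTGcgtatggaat
Fnbp1l: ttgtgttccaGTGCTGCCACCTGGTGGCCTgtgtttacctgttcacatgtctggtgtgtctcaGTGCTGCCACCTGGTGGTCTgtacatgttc
Gdf15: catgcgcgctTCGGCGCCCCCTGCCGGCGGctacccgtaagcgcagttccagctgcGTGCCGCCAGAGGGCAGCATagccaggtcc
Gins4: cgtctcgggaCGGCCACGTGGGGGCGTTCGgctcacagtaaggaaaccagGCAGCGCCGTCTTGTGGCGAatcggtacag
Iqsec1: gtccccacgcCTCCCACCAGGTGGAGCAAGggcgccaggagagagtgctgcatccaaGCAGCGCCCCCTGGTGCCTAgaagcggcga
The Fam129b window is chr2:32912583-32912657, in an intron of the gene, with the left match on the plus strand and the right match on the minus strand, 35 bp apart from start to start. The Fnbp1l window is chr3:122638797-122638889, between genes, and both matches lie on the minus strand, 53 bp apart. The Gdf15 window is chr8:70629881-70629966, in a coding exon, with the left match on the minus strand and the right match on the plus strand, 46 bp apart. The Gins4 window is chr8:23237832-23237911, upstream of the gene's start, and the Iqsec1 window is chr6:90737553-90737639, in an intron. The Gins4 and Iqsec1 pairs have the left match on the plus strand and the right match on the minus strand, 40 and 47 bp apart.

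The motif was learned from other peaks, those of chromosome 1 with a signal of 200 to under 500, and its consensus was TGGCCACTAGGGGGCACTAT. A match is a description of the letters and was not tested as a binding site. A match was a score of at least 13.48, which 1% of windows 1 kb to the right of optimal summits reached. With this matrix, 139 of the 691 strongest peaks had 2 or more matches within 100 bp of the summit that did not overlap each other (20.1%, interval 17.2 to 23.3). Among all optimal peaks off chromosome 1 the share was 0.953%, or 662 of 69457. Intervals throughout are exact Clopper-Pearson 95% intervals of counting error only, since peaks are not independent replicates.

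The share with 2 or more matches was 60% among ranks 1 to 100 (interval 49.7 to 69.7), 19% among ranks 101 to 300 (13.8 to 25.1) and 10.5% among ranks 301 to 691 (7.63 to 14.0). Of the 10 strongest peaks 9 had 2 matches, the exception being the peak near Glrx3, and of the 30 strongest 23 had them. Optimal peaks with a signal of 400 to under 500 had 2 or more matches in 2.29% of cases (1.88 to 2.76). The same search 1 kb to the right of the 691 summits gave 2 matches in 0 of 691 windows, which allows a share of up to 0.434% when the limit is set at 3 counts (the exact interval ends at 0.532%). A stricter score, 19.62, which 0.1% of windows reached, left 16 of the 691 with 2 matches (2.32%), against 0.0490% of all optimal peaks. This count of matches was chosen after the distance between motif and summit had been seen.

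**Figure D1:**
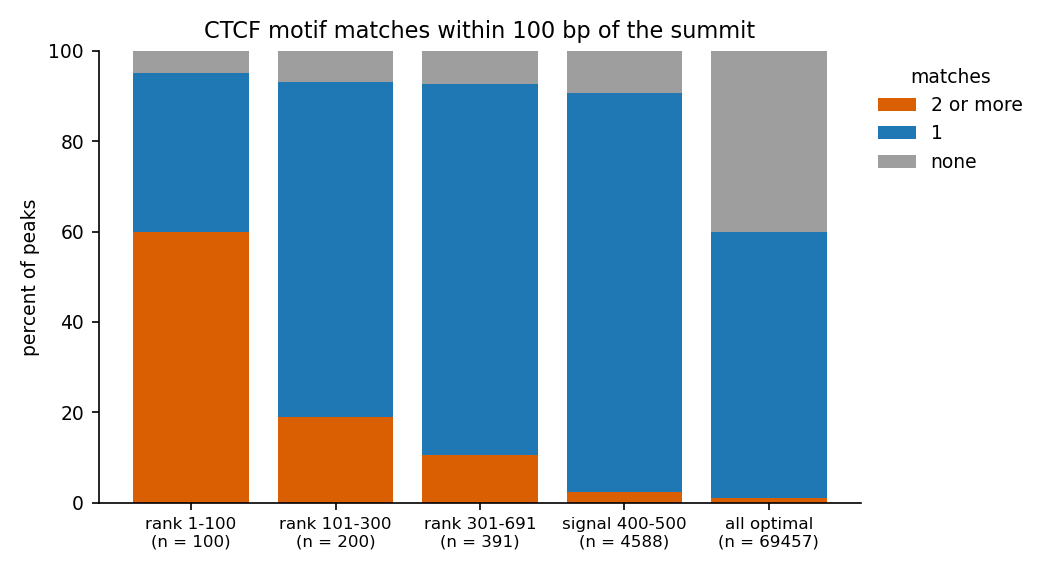
Percent of peaks (vertical axis) with 2 or more, 1 or no match to the CTCF motif within 100 bp of the summit, for the strongest peaks in 3 bands of rank, for peaks with a signal of 400 to under 500 and for all optimal peaks, the last 2 groups off chromosome 1. The part with 2 or more matches was 60% of ranks 1 to 100 and 0.953% of all optimal peaks.

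Paired matches lay mostly on the same strand. In the 139 peaks the 2 best matches started a median of 57 bp apart (30 to 121). Over the 695 optimal peaks with 2 or more matches the median was 53 bp (20 to 163). The search within 100 bp of the summit limits these distances. In 133 of the 139 peaks the summit lay between the centres of the 2 matches (95.7%). The matches lay on the same strand in 103 pairs (74.1%, interval 66 to 81.2), pointed toward each other in 20 and away from each other in 16. Over all optimal peaks with 2 or more matches the same-strand share was 59.1% (55.2 to 62.8). The 2 matches of a pair had a median of 12 of 20 bases alike, and 10 pairs had at least 19 alike. The bases around the matches were not compared, and whether pairs were copies of one sequence was not tested. Masked repeats lay at the summit of 6 of the 139 peaks (4.32%).

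The peaks with paired matches were wider and were ranked high in both replicates. Their median width was 395 bp, against 330 bp for the 504 peaks with 1 match and 325 bp for the 48 with none. Their median signal was 565, against 522 with 1 match and 519 with none, values that the choice by signal touches. Width was greater in higher ranks, and the replicate values entered the signal. The differences in width and in replicate rank were therefore not separated from the difference in signal. Of the 139 peaks 110 stood among the 691 strongest of each replicate (79.1%, interval 71.4 to 85.6), against 275 of the 504 with 1 match (54.6%, 50.1 to 59.0). The median GC content of the 101 bp around the summit was 57.4% both in peaks with paired matches and in those with 1 match. Near Nfatc4, Nemp1 and Ctif there were 3 or more matches.

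**Figure D2:**
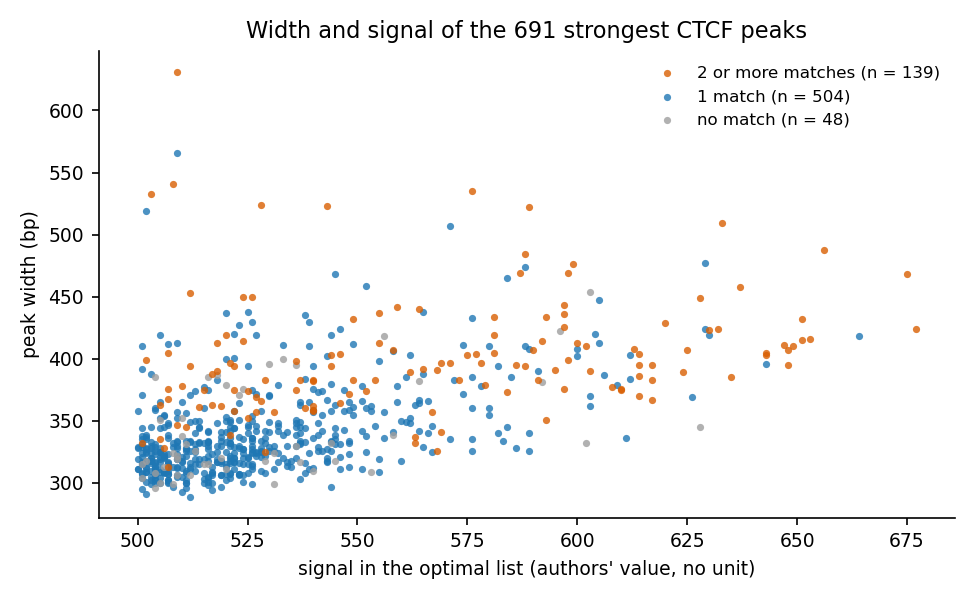
Peak width in bp (vertical axis) against the authors' signal in the optimal list (horizontal axis), 1 point for each of the 691 strongest peaks, coloured by the number of motif matches within 100 bp of the summit. Peaks with 2 or more matches had a median width of 395 bp, against 330 bp for those with 1.

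Within 50 bp of the summit, 630 of the 691 peaks had at least 1 match (91.2%, interval 88.8 to 93.2), against 58.9% of all optimal peaks off chromosome 1. The share was 90.1% in peaks with a signal of 400 to under 500 (89.2 to 91.0), and windows 1 kb to the right of the 691 summits had a match in 1.16% (0.501 to 2.27). The best match scored a median of 19.3 in the strongest peaks with a match and 17.8 in all optimal peaks with a match. It was also 19.3 in peaks with a match and a signal of 400 to under 500. The motif lay on the plus strand in 50.3% of the strongest peaks with a match, against 49.7% of all optimal peaks with one.

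The match sat off the summit in the highest ranks. Its centre lay within 10 bp of the summit in 62.5% of the strongest peaks with a match (interval 58.6 to 66.3), against 77.2% over all optimal peaks with one and 87.9% in peaks with a signal of 400 to under 500. By rank the share was 16.1% in ranks 1 to 100, 53.3% in ranks 101 to 300 and 79.3% in ranks 301 to 691. It was 11.1% in peaks with 2 or more matches (6.35 to 17.7) and 76.6% in peaks with 1 (72.6 to 80.2). Among peaks with 1 match it was 33.3% in ranks 1 to 100 (11 of 33, interval 18.0 to 51.8), 63.9% in ranks 101 to 300 and 86.8% in ranks 301 to 691, so the order by rank was the same there.

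Single bases of the motif differed in frequency between the strongest peaks and all optimal peaks. Counted from 1 at the first base of the matrix, C stood at position 7 in 62.8% of the matches of the strongest peaks and in 40.2% of all, and G at position 11 in 61.6% and 43.1%. T stood at position 1 in 49.6% and 33.4%, and T at position 17 in 2.97% and 20.5%. A CpG, the dinucleotide that can be methylated, was present in 360 of 607 matches of the strongest peaks read for bases (59.3%, interval 55.3 to 63.2), against 37.6% of all optimal matches read likewise. The median GC content around the summit was 57.4% in the strongest peaks and 52.5% in all optimal peaks, so base composition moved with these frequencies. Masked repeats moved with them too, holding 4.34% of the summits of the strongest peaks against 22.2% of all optimal summits. The part of base composition or of repeats in these frequencies was not tested. The differences in single bases and in CpG were therefore not separated from the difference in repeats. The 20-base match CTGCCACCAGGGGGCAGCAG was shared by the peaks near Stmn1 and Sox13.

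Some of the strongest peaks had no match at the summit. They numbered 61, of which 13 had a match within 100 bp and 38 had a best score of 10 or more within 50 bp. The strongest without a match lay near Epcam (rank 23, signal 628), which encodes an adhesion molecule of epithelial cells, then near Hif1an, Rrp1, Sync and Hjurp (ranks 49, 52, 64 and 69). The base sequence under the Epcam summit is shown as the strongest peak without a match, on the plus strand of GRCm38 at chr17:87571769-87571828, with no capitals as there is no match to mark.
Epcam: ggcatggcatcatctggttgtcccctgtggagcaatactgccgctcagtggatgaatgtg
This peak had a signal of 331 (rank 49) in replicate 1 and of 303 (rank 8) in replicate 2, and lay between genes, 64180 bp upstream of the nearest coding start. Of the 61 peaks 15 lay within 1 kb of a coding start and 1 in a masked repeat.

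All 691 strongest peaks were present in both replicates. Each had a partner with a summit within 100 bp in the full list of either replicate, and each was among the 74283 strongest of both replicates, against 83.2% of all optimal peaks. All 691 also overlapped a peak of the conservative list, against 88.8% of all optimal peaks. Both shares were 100% in the 4911 peaks with a signal of 400 to under 500 as well. The signal that chose the 691 was made from both replicates together. These shares are therefore not independent of the choice and are no test of agreement between the replicates. All 691 carried the highest -log10 q-value of the optimal list, 5.12, which 63580 optimal peaks shared, so the q-value gave no order among them. The summit in a replicate lay a median of 2.00 bp from the optimal summit in each.

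The order of the peaks differed between the replicates. Order was counted in the top 691 and presence in the top 74283, so their shares cannot be compared as stability. Of the 691, 540 were among the 691 strongest of replicate 1 (78.1%), 552 among those of replicate 2 (79.9%), 410 among those of both (59.3%, interval 55.6 to 63.0) and 9 among those of neither. Within the 1382 strongest of each replicate stood 640 of them (92.6%). The median rank was 367 in replicate 1 (1 to 2591) and 354 in replicate 2 (1 to 3978). Conversely, 151 of the top 691 of replicate 1 and 139 of those of replicate 2 were not within 100 bp of one of the 691 optimal peaks, and 0 of these lacked an optimal peak of lower signal.

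Individual peaks show how the replicates ranked them. The peak near Gins4, a subunit of the GINS replication complex, was first in replicate 1 (signal 373) and rank 56 in replicate 2 (signal 280). The peak in an untranslated region of Ptges2, which encodes a prostaglandin E synthase, was first in replicate 2 (signal 326) and rank 76 in replicate 1 (signal 323). The widest disagreement was near Tuba1c, an alpha-tubulin gene, with a signal of 317 and rank 104 in replicate 1 and a signal of 188 and rank 3978 in replicate 2. The peaks of Apopt1 (ranks 115 and 2850 in replicates 1 and 2), Hpca (183 and 2813) and Acvrl1 (141 and 2756) leaned the same way, and the peak of Ctif (2591 and 124) the other way. From Tuba1c to Ctif, these peaks had optimal signals near the limit, from 501 (Hpca) to 512 (Apopt1). The signals of the lists are not scaled to each other by the authors, so these ranks hold within each list.

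**Figure D3:**
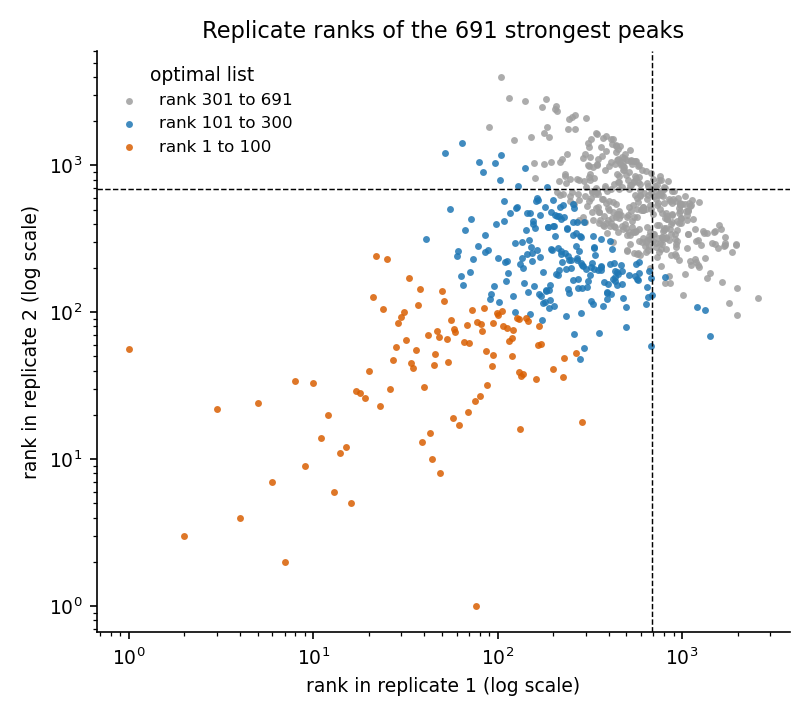
Rank of each of the 691 strongest optimal peaks in replicate 1 (horizontal axis) and in replicate 2 (vertical axis), both on log scales, coloured by rank in the optimal list, with dashed lines at rank 691. The 410 points at the lower left were among the 691 strongest of both replicates, and the point highest on the vertical axis is the peak near Tuba1c at rank 3978.

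The ratio of the replicates moved with the distance to gene starts. The signal in replicate 1 over that in replicate 2 had a median of 1.28 in the 110 strongest peaks within 1 kb of a coding transcription start (1.08 to 1.53) and of 1.20 in the other 581 (0.962 to 1.69). Over all optimal peaks the medians were 1.56 within 1 kb and 1.31 elsewhere. The median rank of the 110 peaks was 266 in replicate 1 and 471 in replicate 2, while that of the other 581 was 396 and 341. The median GC content was 64.4% in the 110 peaks and 56.4% in the others, and its part in the difference between replicates was not tested.

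The strongest peaks were at gene starts about as often as CTCF peaks in general. Within 1 kb of a coding start lay 110 of the 691 (15.9%, interval 13.3 to 18.9), against 15.4% of all optimal peaks and 11% of peaks with a signal of 400 to under 500 (10.2 to 11.9). The share depends on the replicate, with 21.1% of the 691 strongest peaks of replicate 1 alone and 11.4% of those of replicate 2 alone. Within 10 kb the share was 42.1%, against 40.3% of all optimal peaks. Beyond 100 kb from any coding start lay 38 peaks (5.50%, interval 3.92 to 7.47), against 13.5% of all optimal peaks and 8.27% of peaks with a signal of 400 to under 500.

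At gene starts the strongest peaks lay mostly upstream, with the motif mostly on the strand of the gene. Of the 110 summits 93 were upstream of the nearest coding start (84.5%, interval 76.4 to 90.7), against 54.4% of all optimal peaks within 1 kb and 80.3% of those with a signal of 400 to under 500 (76.7 to 83.5). The motif was on the gene's strand in 68 of the 95 with a match (71.6%, 61.4 to 80.4), against 56.0% over all optimal peaks with a match and 64.8% at a signal of 400 to under 500 (60 to 69.3). Peaks within 1 kb had a match in 86.4% of cases among the strongest and in 27.2% among all optimal peaks off chromosome 1.

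The peaks at gene starts that ranked highest lay by Gins4, Acbd4 (rank 12, signal 643), Twf2 (rank 17, signal 633), Top1mt, Rab2b, Med4, Pik3r2, Rrp1, Cirbp and Hjurp. Twf2 encodes an actin-binding twinfilin and Top1mt the mitochondrial topoisomerase. Med4 encodes a subunit of the Mediator complex, Cirbp a cold-inducible RNA-binding protein, and Hjurp a chaperone of centromeric histone. The Gins4, Acbd4, Twf2, Top1mt and Cirbp peaks had 2 matches, those of Rab2b, Med4 and Pik3r2 had 1, and those of Rrp1 and Hjurp had 0. The summit was 53 bp upstream of the start of Rrp1, 90 bp upstream of that of Med4 and 400 bp downstream of that of Twf2.

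Between genes lay 342 of the strongest peaks (49.5%, interval 45.7 to 53.3), against 38.9% of all optimal peaks and 47.3% of those with a signal of 400 to under 500. This class includes summits just upstream of a gene start, such as those by Gins4, Med4 and Rrp1. The sequence between genes makes up 54.0% of the assembled genome. Introns held 271 (39.2%), against 48.0% of all optimal peaks and 42.0% of those with a signal of 400 to under 500. Exons of noncoding transcripts held 36 (5.21%, against 4.07%), untranslated regions 29 (4.20%, against 5.37%) and coding exons 13 (1.88%, interval 1.01 to 3.20, against 3.64%). At a signal of 400 to under 500 these shares were 4.50%, 4.11% and 2.12%. The 5 strongest in coding exons were in Gdf15, a stress-induced cytokine of the TGF-beta superfamily (rank 4), in Polr3gl (rank 7), which encodes a subunit of RNA polymerase III, in Spi1, a transcription factor of myeloid cells (rank 43), in Zfp219 (rank 77) and in Pgls (rank 111), an enzyme of the pentose phosphate pathway. Of the genes that held a summit, 290 were protein-coding, counted by peak, and 32 were lincRNA genes.

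Repeats were rare under the strongest peaks. The summit was in sequence masked as a repeat in 30 of the 691 (4.34%, interval 2.95 to 6.14), against 22.2% of all optimal peaks and 4.99% of those with a signal of 400 to under 500 (4.40 to 5.64). Whether reads in repeats could be placed uniquely was not tested.

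The strongest peaks had weaker peaks close by, while the spacing between the strongest depends on how many the limit kept. The distance from one of the strongest peaks to the next had a median of 580538 bp. It ran from 1139 to 20968249 bp over the 690 that had another on their chromosome. With limits of 450 and 550 the median was 144422 and 3387054 bp. The spacing was not set against an equal number of other peaks, so it is a description. Of the 691, 22 had another within 10 kb (3.18%), 110 within 100 kb (15.9%) and 444 within 1 Mb (64.3%). The next optimal peak of any signal lay a median of 4549 bp away, and 527 of the 691 had one within 10 kb (76.3%, interval 72.9 to 79.4), against 66.2% of all optimal peaks. In peaks with a signal of 400 to under 500 the share was 73.6%, within that interval. In 9 of the 671 intervals between neighbouring strongest peaks there was no other optimal peak, and all 9 were under 50 kb.

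**Figure D4:**
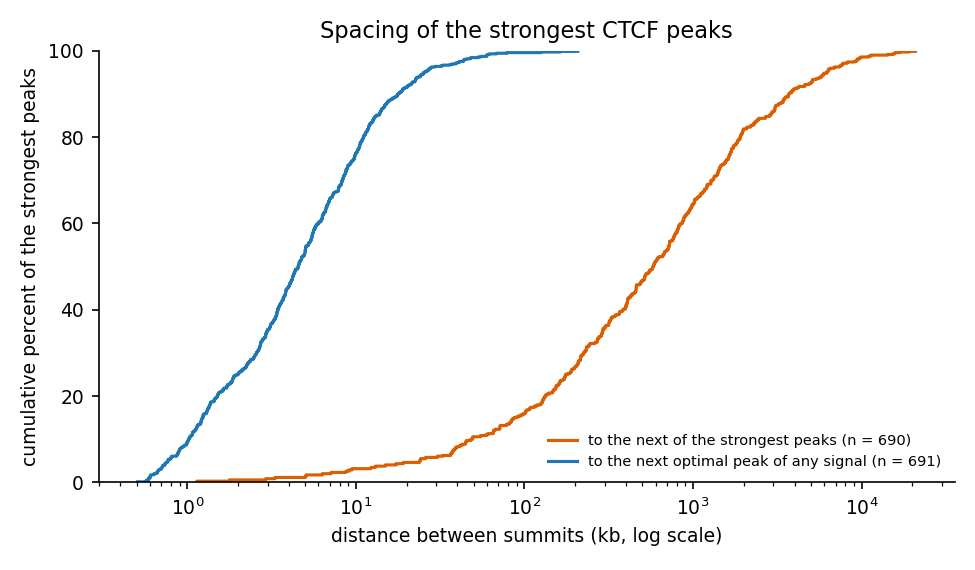
Cumulative percent of the strongest peaks (vertical axis) by the distance in kb, on a log scale, from the summit to the next of the strongest peaks and to the next optimal peak of any signal. The medians were 580538 bp and 4549 bp.

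The closest pairs lay 1139 bp apart in an intron of Dnah17, a dynein heavy chain gene, 1778 bp apart near Wdr18, 2917 bp near Rplp0, a ribosomal protein gene, 3319 bp near Prr3 and 5030 bp in Pla2g5, a secreted phospholipase gene. The motifs pointed away from each other in the Wdr18 and Rplp0 pairs. Neither peak of the Dnah17 pair had a match. They shared a run of 36 identical bases, while the other 4 pairs shared at most 9. The Dnah17 summits (signals 556 and 516) are shown for that reason, though the windows printed do not both hold the whole run. They are on the plus strand of GRCm38 at chr11:118103051-118103110 and chr11:118104190-118104249.
Dnah17, left peak: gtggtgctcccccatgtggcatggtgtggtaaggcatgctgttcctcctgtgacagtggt
Dnah17, right peak: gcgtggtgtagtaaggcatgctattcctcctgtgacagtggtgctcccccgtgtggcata
Whether reads of one copy were placed at the other was not tested.

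The peaks near Arid3a and Wdr18 on chromosome 10 formed the only run of 3 with neighbours under 50 kb apart, spanning 34633 bp with signals of 538, 502 and 526. The peaks farthest from any other of the strongest were those of Plag1, a zinc finger gene (20968249 bp), Ndufaf4, an assembly factor of respiratory complex I (19167864 bp), and Klf14 (16759672 bp). Of 2737 bins of 1 Mb, 2226 held none of the strongest peaks, 378 held 1 and 3 held 6. These 3 were on chromosome 4 (138000001 to 139000000, with Pink1 and Pla2g5), on chromosome 11 (101000001 to 102000000, with Meox1 and Sost) and on chromosome 17 (35000001 to 36000000, within the major histocompatibility complex), and held 77, 96 and 121 optimal peaks. The genes that held several of them were Gm20388 with 6, and Col18a1, Dnah17, Dram1, Gng7, Gse1, Iqsec1 and Pla2g5 with 2 each. The Gm20388 annotation overlaps other genes and held summits from chr8:120319684, in Gse1, to chr8:122551692, near Piezo1. These counts were not set against gene length.

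Neighbouring strongest peaks had motifs facing each other in a share within counting error of that of all optimal peaks. Among 84 neighbouring pairs up to 200 kb apart, 16 faced each other (19%, interval 11.3 to 29.1), 26 faced away (31.0%, 21.3 to 42.0) and 42 had the same strand (50%, 38.9 to 61.1). Over all optimal peaks at that distance the shares were 23.3%, 24.2% and 52.5%, all within those intervals. Up to 1 Mb, 68 of 265 pairs of the strongest peaks faced each other (25.7%, 20.5 to 31.4) and 47 faced away (17.7%, 13.3 to 22.9).

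The chromosomes differed in the number of strongest peaks per Mb of assembled sequence. Chromosome 11 had 75, or 0.632 per Mb, against 0.288 per Mb over the autosomes, and chromosome 3 had 29, or 0.185 per Mb. All optimal peaks had the same extremes among the autosomes, with 45.9 per Mb on chromosome 11 and 23.0 per Mb on chromosome 3. Among the autosomes the strongest peaks as a share of the optimal peaks of a chromosome ran from 0.725% on chromosome 19 to 1.38% on chromosome 11, and on X the share was 0.0565%.

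The X chromosome had 1 of the 691, near Zxdb, a zinc finger gene, and Y had 0, as it had no optimal peak. The X density was 0.0212 times that of the autosomes for the strongest peaks and 0.358 times for all optimal peaks. The Zxdb peak had a signal of 540, with 322 (rank 83) in replicate 1 and 222 (rank 904) in replicate 2, and 2 motif matches. No other optimal peak lay within 10 kb of it, the next being 125005 bp away. The number of X copies in the tissue is unknown, since sex was not recorded, and its part in the low X density was not tested.

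**Figure D5:**
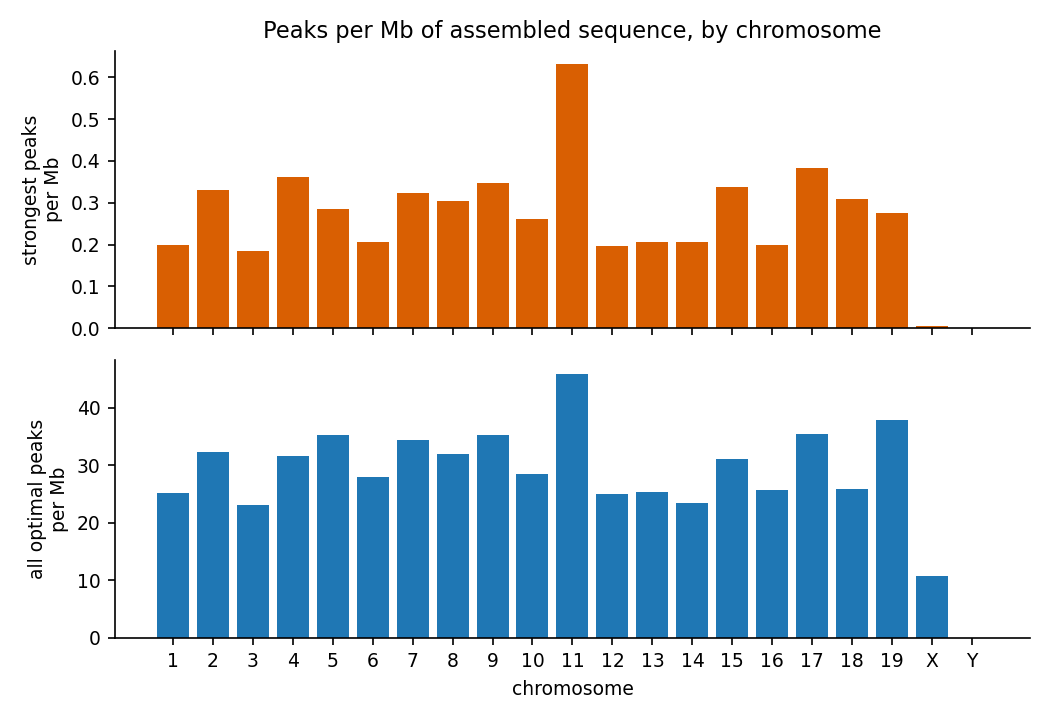
Peaks per Mb of assembled sequence (vertical axes) on each chromosome (horizontal axis), for the strongest peaks above and all optimal peaks below. Chromosome 11 was highest in both, at 0.632 and 45.9 per Mb, and X had 0.00612 strongest and 10.8 optimal peaks per Mb.

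Width was greater in the higher ranks. The strongest peaks were 289 to 631 bp wide with a median of 339 bp, against 296 bp for all optimal peaks and 301 bp for those with a signal of 400 to under 500. The median was 404 bp in ranks 1 to 100, 350 bp in ranks 101 to 300 and 325 bp in ranks 301 to 691. Of all optimal peaks 50.9% had a width of exactly 296 bp, and 2 of the 691 had it (0.289%). The widest lay in Ctif (631 bp, with 5 motif matches), at the start of Vps18 (566 bp), which encodes a subunit of the HOPS tethering complex, and near Bcan (541 bp). The narrowest lay in Acad12 (289 bp), near Top1 (291 bp) and near Tmem184c (293 bp). Width and signal come from the same peak caller and are not independent of each other.

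Of 21829 coding genes 374 had one within 10 kb of a start (1.71%), while 69.7% had an optimal peak of any signal. Of 9 gene lists, those of the CTCF and cohesin machinery, of endothelium, of blood, of enteric nerves and of muscle and mesenchyme had 1 gene each. These were Nkx3-2, a homeobox gene of the stomach mesenchyme (4082 bp, signal 519), Gfap, a filament of glia (3795 bp, 501), Sox18, a transcription factor of endothelium (7331 bp, 525), Cd79a, a part of the B cell receptor (6744 bp, 518), and Esco1, a cohesin acetyltransferase (7399 bp, 505). The list of glandular epithelium had 0 of 29, squamous forestomach 0 of 18, the hedgehog pathway 0 of 17, and the BMP, FGF and Wnt signals 0 of 18. In lists this short, the background of 1.71% gives less than 1 gene each, so 0 or 1 does not set any list apart.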

How the data were processed

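CTCF ChIP-seq peaks of 2 stomach samples were read as deposited, in mm10 coordinates: relaxed lists of replicate 1, replicate 2 and both together, and optimal and conservative lists after IDR, a filter on agreement of replicate ranks. Names of the aligner, the caller and the IDR threshold were not given in the sources used here. Signal is the authors' value per peak and is not scaled between lists, and a −log10 q-value is deposited beside it. The deposited score was 1000 for all 691 peaks, and the deposited summit is an offset in bp from the peak start. Read counts were not used, so depth is unknown, and control libraries are not analysed here. Pooling of the samples by the authors precedes the optimal signal, so replicate ranks are not independent of it.

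The 10 peaks on scaffolds were left out, 0 of them with a signal of 500 or more. Replicate partners had a summit within 100 bp, the one of highest signal being taken. Genes came from GENCODE M21 and sequence from RefSeq GRCm38. A matrix of 20 positions was fitted by expectation maximisation from the most enriched 8-base word of 1384 chromosome 1 peaks with a signal of 200 to under 500, with no strongest peak among them, and windows reached 50 bp on either side of the summit. Base frequencies in matches leave out chromosomes 1 (all optimal peaks only) and 18. Genes near a peak are named by the nearest coding start. Python 3.11.15, numpy 2.4.6, pandas 2.3.3, scipy 1.17.1, pysam 0.24.0 and matplotlib 3.10.9 were used, and the motif search was checked on simulated data. Named peaks were the 30 strongest, the strongest of each chromosome, the extremes of width, spacing and replicate rank, the strongest at starts, in exons, in untranslated regions and without a motif, and listed genes within 10 kb. The listed names, Cblif, Bapx1 and Znf143, were not matched in the annotation. The peaks, lists and rules were chosen with earlier results of these data known. No p-values were computed. Alternatives were other limits of signal, distance, window and score, and each replicate alone.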

Additional observations from a re-analysis of the deposited data

How the results depend on the processing

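No paired analysis was possible because there was 1 group, and the replicate numbers pair nothing. The values compared are counts, shares, medians or ratios and cannot change sign. Of the alternatives, 31 values lay within the main interval (counts within 1.5 times) and 30 did not. The cause was not tested unless the setting itself changes what is counted. With a limit of 450, in place of 500, there were 2450 peaks and with 550 there were 172. The median distance to the next was 144422 and 3387054 bp, the median width 317 and 390 bp, and coding genes with a peak 5.64% and 0.444%. At 450, 69.4% were in the top of both replicates and 12.7% within 1 kb of a start. At 550, X over autosomes was 0 and 50% of pairs faced each other. The share at starts was 20.8% at 2 kb and 22.7% with starts of all genes. Coding genes with a peak were 0.541% at 1 kb and 6.79% at 50 kb. The motif share was 43.3% at the score of 0.1% of windows and 59.6% in a window of 20 bp. Paired matches, an outcome and set of alternatives added after seeing the data, were 8.12% at 450, 46.5% at 550, 2.32% at the stricter score and 13.5% in a window of 50 bp.

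With either replicate alone, the top share was 78.1% to 79.9%, the share at starts 11.4% to 21.1%, between genes 50.2% to 50.7%, the median distance 521954 to 662397 bp, the width 289 to 315 bp, the motif share 91.5% to 92.2%, X over autosomes 0 to 0.0425, facing pairs 21% to 22.1%, coding genes 1.58% to 1.93%, and paired matches 17.4% to 20.3%. Presence in both replicates was 100% in every alternative run, a value that is not independent of the choice by signal. With 2 replicates that carry 1 tissue sample in the labels, and no depth, no value here has an error between animals.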
